A study of Mus musculus with 18 samples.

Results

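The glutathione and antioxidant response genes are a set of 44 genes that supply, use and regulate glutathione, thioredoxin and NADPH, detoxify peroxides, quinones and haem, or control that programme. They were chosen by gene symbol, and 44 of 44 were found among the 24360 gene rows of each of the 2 count tables. GPX2, a glutathione peroxidase of the gut epithelium, had 0 counts in 17 of the 18 libraries and a CPM (library-size scaled count) of 0.0484 in the remaining one, 67NR *Kmt2c* KO replicate 3, so 43 genes passed the filter on low counts and were tested.

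RNA-seq was made from the mouse mammary tumour cell lines 168FARN and 67NR, each as WT, *Kmt2c* KO and *Kmt2d* KO cells, with 3 replicates of each of the 6 groups. *Kmt2c* and *Kmt2d* encode histone H3 lysine 4 methyltransferases that act mainly at enhancers. In the count table, the WT libraries of 168FARN are named for a control sgRNA, which the paper does not describe, and those of 67NR are named WT. Knockouts were pools of sorted cells, made with sgRNAs against exon 1 and transient Cas9, so that a group is a mixed population and not a clone. The transcript of the targeted gene was present in the knockouts, as it can be when guides leave small indels: KMT2C had 46.8 to 96.7 CPM in 168FARN *Kmt2c* KO against 44.7 to 113 in WT, and 85.5 to 95.7 against 54.6 to 63.1 in 67NR. KMT2D had 136 to 296 CPM in 168FARN *Kmt2d* KO against 104 to 160 in WT, and 94.1 to 147 against 83.0 to 112 in 67NR. Transcript level therefore does not check the knockout. The study checked it by sequencing the targeted regions and by immunoblot, which showed reduced protein in both lines. Its share of mutant reads was lower for *Kmt2c* than for *Kmt2d* in each line, and lowest in 67NR *Kmt2c* KO, so unedited alleles remained there.

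Totals were 14359760 to 43427382 counts per library in 168FARN and 40951775 to 79251530 in 67NR. Over all genes, the deviations of replicate 3 from its group mean ran against those of replicates 1 and 2 in each line. The genes of the set took 1.95 to 2.43% of all counts in replicates 1 and 2 of 168FARN and 1.41 to 1.50% in replicate 3. In 67NR replicate 3, the share was 0.916% in WT, between the 0.853 and 0.937% of replicates 1 and 2, 0.969% in *Kmt2c* KO, against 1.03 and 1.05%, and 0.660% in *Kmt2d* KO, against 0.994 and 1.05%. In 67NR *Kmt2d* KO replicate 3, the ribosomal RNA gene RN45S took 28.7% of the counts. Several results that rest on replicate 3 are given also with the replicate number as a block or from replicates 1 and 2 alone. For others, only the change with a library left out is given. Epithelial markers also moved with genotype in 67NR. On a CPM scale common to the 18 libraries, the summed level of 6 epithelial genes was 2405 to 3797 CPM in 67NR WT, 493 to 768 in *Kmt2c* KO and 874 to 1537 in *Kmt2d* KO, with 6 of 6 genes over 1 CPM in each group. CDH1 was at 458 to 516, 53.1 to 74.4 and 151 to 204 CPM in the same order. The summed level of 6 mesenchymal genes overlapped, at 3240 to 6108, 4080 to 5375 and 3806 to 5458 CPM. Among them, VIM, CDH2, ZEB1 and TWIST1 were higher in each knockout library than in WT (ZEB1 at 3.72 to 6.38, 62.5 to 77.1 and 47.5 to 53.5), FN1 was lower (1868 to 5799, 682 to 1363 and 1079 to 1617), and COL1A1 overlapped. In 168FARN, 1 of the 6 epithelial genes, KRT8, was over 1 CPM, and EPCAM and CLDN4 were at 0. KRT8 was at 127 to 397 CPM in 168FARN WT, 99.6 to 293 in *Kmt2c* KO and 98.7 to 387 in *Kmt2d* KO. In 67NR it was at 263 to 777 CPM in WT, 77.6 to 218 in *Kmt2c* KO and 107 to 408 in *Kmt2d* KO. The summed level of the 6 mesenchymal genes was 7404 to 10155 CPM in 168FARN WT. For 168FARN, the paper proposes that the cells were mesenchymal before the knockout. Among leukocyte, endothelial, adipocyte and erythroid markers, PTPRC and CD3E reached at most 0.151 CPM, while CD68 was at 2.84 to 93.2. The endothelial gene CDH5 was higher in 168FARN *Kmt2c* KO, at 4.57 to 4.97 CPM, than in WT, at 0.513 to 1.14, or *Kmt2d* KO, at 0.286 to 0.490, with PECAM1 and KDR under 1 CPM in each library. Summed adipocyte markers reached at most 0.306 CPM, and erythroid markers were at 0. The part of these markers in the results below was not tested, and with bulk RNA, fewer cells of a type and less RNA per cell cannot be told apart.

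NFE2L2 (NRF2) is the transcription factor that drives much of this programme. KEAP1 holds it in the cytoplasm for degradation, and oxidants or electrophiles that modify KEAP1 release it, after which it binds antioxidant response elements together with small MAF proteins. Its best known targets make glutathione (GCLC, GCLM), reduce quinones (NQO1), break down haem (HMOX1) and repair peroxiredoxins (SRXN1), so their transcripts are commonly read as a measure of NRF2 activity. Tumour cells that leave their tissue meet oxidative stress, and the set is for that reason of interest in metastasis.

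The core of the antioxidant response element, TGACNNNGC, was searched on both strands in the window from 250 bases before to 50 bases after each start in RefSeq's promoters (GRCm38.p6). Of the 44 genes, 36 had an entry, with 48 windows in all, and HMOX1, GCLC, GSR, PRDX6, GSTA4, SOD3, ABCC1 and ALDH3A1 had none. The core was present in 13 of the 48 windows (27.1%), those of 12 genes, against 12.4% of all 32851 windows. The members' windows also had a higher median GC content (58.2% against 52.7%) and a higher median ratio of observed to expected CpG (0.671 against 0.384). TGACTCA, the AP-1 site, was in 12.5% of the members' windows and 5.20% of all, and 2 of the 13 cores, those of PRDX1 and ME1, overlapped it. The 13 matches follow, to show which genes hold the core, each read along the strand of the motif with the core in capitals and 10 bases on each side. The first is at chr2:75704895-75704903, 240 bases before a start of NFE2L2 itself, and that of SRXN1 at chr2:152105552-152105560, 29 bases after its start.
NFE2L2: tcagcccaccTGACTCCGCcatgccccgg
SRXN1: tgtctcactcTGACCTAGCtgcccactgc
GCLM: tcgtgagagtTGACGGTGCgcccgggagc
TXNRD1: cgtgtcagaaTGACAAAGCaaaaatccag
PRDX1: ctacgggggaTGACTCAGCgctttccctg
PGD: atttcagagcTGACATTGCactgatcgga
ME1: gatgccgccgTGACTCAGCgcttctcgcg
G6PDX: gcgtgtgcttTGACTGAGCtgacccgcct
GSTM5: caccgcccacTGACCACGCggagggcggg
MGST1: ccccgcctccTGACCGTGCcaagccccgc
SOD1: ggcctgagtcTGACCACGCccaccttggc
ABCC4, first start: cggcccgcccTGACCCCGCctctcggggc
ABCC4, second start: aataatctcgTGACTCTGCcgtggtggat
A match is a description of these letters and not a site of binding, and enhancers outside the windows were not searched.

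GSTT1, the gene of the set with the largest fold change below, has no match to the core in its window. The 250 bases before its start, on the minus strand at chr10:75797732-75797981 of GRCm38.p6, are shown with their 6 CG dinucleotides in capitals.
GSTT1: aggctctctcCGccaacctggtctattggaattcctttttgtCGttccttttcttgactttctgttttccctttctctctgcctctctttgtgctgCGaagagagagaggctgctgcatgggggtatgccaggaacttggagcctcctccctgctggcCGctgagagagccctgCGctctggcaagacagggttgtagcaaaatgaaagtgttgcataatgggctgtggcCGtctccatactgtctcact

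The first question was which of these genes changed when *Kmt2c* or *Kmt2d* was knocked out. A gene was called where edgeR's quasi-likelihood test gave a Benjamini-Hochberg adjusted p under 0.1 over all genes tested and the absolute log2 fold change was over 0.6. Levels are CPM scaled by TMM within a line, where RPKM is not stated. In 67NR, 10 of 43 genes rose and 5 fell in *Kmt2c* KO, and 10 rose and 2 fell in *Kmt2d* KO. The genes that rose in each were GSTT1, SOD3, BLVRB, GSTM1, SRXN1, AKR1B8, GPX8, TALDO1, FTH1 and ABCC1, and PRDX6 and MGST1 fell in each, with GSR, CAT and CBR1 lower in *Kmt2c* KO only by this rule. The genes that fell in *Kmt2d* KO numbered 4 without its replicate 3, with GSR and KEAP1 added, and 5 from replicates 1 and 2 alone, with GSR, MGST2 and ABCC4 added. Those that fell in *Kmt2c* KO numbered 3 without its replicate 1 and 8 from replicates 1 and 2 alone. Of all genes, 1614 of 13945 fell in *Kmt2d* KO without its replicate 3, and 2183 of 13919 in *Kmt2c* KO without its replicate 1. With replicates 1 and 2 alone, 2330 of 13851 fell in *Kmt2d* KO and 2940 in *Kmt2c* KO. In shares, 23.3% of the genes rose in *Kmt2c* KO, where 17.9% of all tested genes did, and 11.6% fell, where 17.4% of all did. In *Kmt2d* KO, 23.3% rose against 13.9% of all genes and 4.65% fell against 11.6%. These shares lie near the background of a line in which many genes changed, and the median log2 fold change of the set was -0.10 for the first knockout and -0.05 for the second, against -0.02 over all genes in both. The comparisons use the same 3 WT libraries, so their likeness is not independent.

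In 168FARN, by the same test, 0 genes rose and 1, HMOX1, fell in *Kmt2c* KO, and 0 were called in *Kmt2d* KO. Of all genes, 0.196% rose and 0.163% fell in *Kmt2c* KO, and 0.147% and 0.139% in *Kmt2d* KO. At an unadjusted p under 0.05, 4 of the 43 genes passed in each knockout, PRDX6, HMOX1, SOD3 and SOD1 in the first and ABCC1, HMOX1, SOD3 and MGST1 in the second. A part of any set passes that threshold without any change. The share of all genes passing it was not counted, and the shares of called genes above do not apply to it. DESeq2 called SOD3 higher and HMOX1 lower in *Kmt2c* KO and SOD3 higher in *Kmt2d* KO. Of all 12253 genes, DESeq2 called 152 higher and 136 lower in *Kmt2c* KO, and 118 and 130 in *Kmt2d* KO. Under the replicate block, 2 genes rose (SOD3, NQO1) and 3 fell (HMOX1, GSTM5, GSTA4) in *Kmt2c* KO, against 3.66% and 3.57% of all genes. In *Kmt2d* KO 1 rose (SOD3) and 5 fell (MGST1, GSTM5, GSTA4, GSTM2, CAT), against 2.73% and 3.17%. From replicates 1 and 2 alone, 8 and 10 genes were called, against 14.5% and 11.0% of all genes in either direction. The median log2 fold change of the set was 0.03 and -0.09, against 0.01 over all genes in both.

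**Figure D1:**
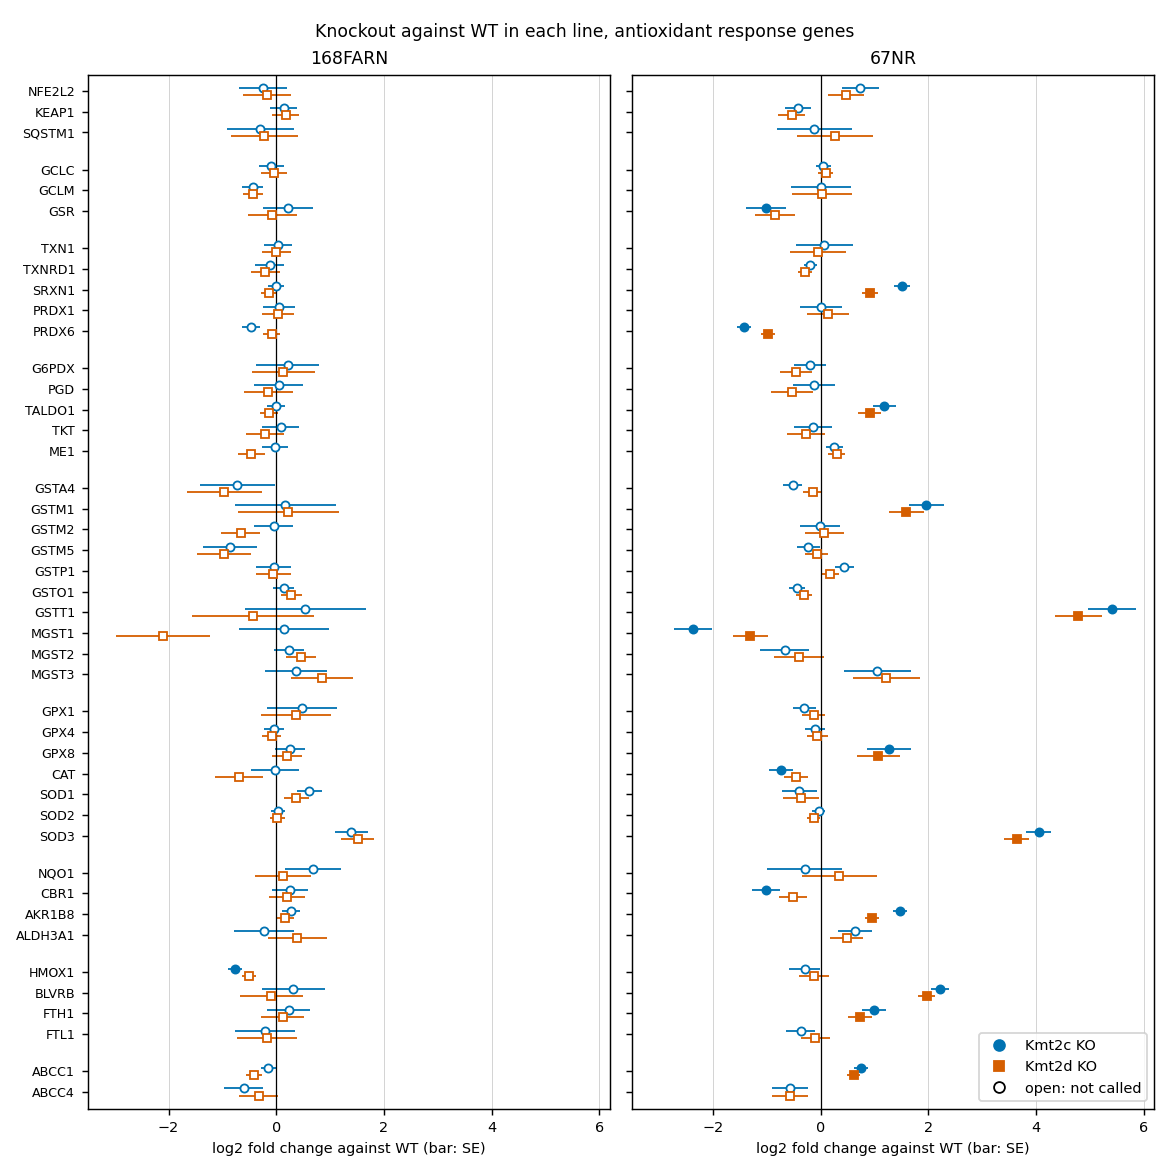
Log2 fold change of each of the 43 tested genes against WT, by role from regulators (top) to export (bottom), in 168FARN (left) and 67NR (right), with *Kmt2c* KO as circles and *Kmt2d* KO as squares, bars for the standard error and filled symbols for called genes. In 67NR, GSTT1 and SOD3 lie farthest to the right in both knockouts and MGST1 farthest to the left, whereas in 168FARN the only filled symbol is that of HMOX1 in *Kmt2c* KO.

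The regulators NFE2L2, KEAP1 and SQSTM1 were not called in any of the 4 comparisons of a knockout with WT. NFE2L2 (mm9 chr2:75513570-75542698, minus strand) was at 117, 133 and 49.3 CPM in 67NR WT, 161, 198 and 143 in *Kmt2c* KO and 165, 141 and 112 in *Kmt2d* KO. Each *Kmt2c* KO library was above each WT library, while *Kmt2d* KO replicate 3 lay below the higher 2 of WT. The log2 fold change of NFE2L2 was 0.74 ± 0.33 (SE, n = 3 per group, edgeR adjusted p = 0.121) in *Kmt2c* KO and 0.48 ± 0.33 (edgeR adjusted p = 0.351) in *Kmt2d* KO. With the replicate block the first was called, at 0.83 (edgeR adjusted p = 0.00521), and DESeq2 called it as well. In 168FARN, NFE2L2 was at 172, 174 and 209 CPM in WT, 93.3, 127 and 247 in *Kmt2c* KO and 114, 108 and 267 in *Kmt2d* KO, so that replicates 1 and 2 were below WT and replicate 3 above it in each knockout. From replicates 1 and 2 alone it was lower by -0.64 (edgeR adjusted p = 0.00186) and -0.62 (0.0037) on the log2 scale, and with all replicates the log2 fold changes were -0.25 ± 0.45 and -0.18 ± 0.45.

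KEAP1 (chr9:21034174-21043776, minus strand), the adaptor that marks NFE2L2 for degradation, was at 58.6, 45.7 and 75.4 CPM in 67NR WT, 43.6, 36.1 and 54.4 in *Kmt2c* KO and 33.0, 38.8 and 51.8 in *Kmt2d* KO. The groups overlapped, and the log2 fold changes were -0.42 ± 0.25 and -0.54 ± 0.25 (edgeR adjusted p = 0.224 and 0.155). In 168FARN the values of KEAP1 were 34.6, 35.4 and 58.5 CPM in WT, 47.1, 42.1 and 52.2 in *Kmt2c* KO and 40.1, 45.3 and 59.8 in *Kmt2d* KO. SQSTM1, an autophagy receptor that competes for KEAP1, differed more between replicates than between genotypes, from 435 to 2287 CPM within 67NR *Kmt2d* KO alone.

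Among the genes of glutathione synthesis, the ligase subunits were not called in either line. GCLM, the modifier subunit of the rate-limiting ligase, was at 34.4, 42.5 and 118 CPM in 67NR WT, 40.3, 44.1 and 111 in *Kmt2c* KO and 51.9, 46.2 and 101 in *Kmt2d* KO. Replicate 3 was the highest in each group and the groups overlapped, with a log2 fold change of 0.03 ± 0.56 in *Kmt2d* KO. In 168FARN, GCLM was at 230.1, 213 and 184 CPM in WT, 139, 137 and 187 in *Kmt2c* KO and 157, 131 and 177 in *Kmt2d* KO, with log2 fold changes of -0.44 ± 0.19 and -0.43 ± 0.19 (edgeR adjusted p = 0.859 and 0.97). From replicates 1 and 2 alone it was lower by -0.67 and -0.61. GCLC, the catalytic subunit, lay between 43.8 and 54.3 CPM in all 9 libraries of 67NR, with log2 fold changes of 0.05 ± 0.14 and 0.10 ± 0.14. GSR, which reduces oxidised glutathione, fell in 67NR *Kmt2c* KO from a mean of 177 ± 55.2 to 87.6 ± 36.3 CPM (SD, n = 3), a log2 fold change of -1.01 ± 0.37 (edgeR adjusted p = 0.0606), and was at -0.85 ± 0.37 (0.135) in *Kmt2d* KO, where the block called it at -0.88 (edgeR adjusted p = 0.000107). The call in *Kmt2c* KO was lost without WT replicate 3, *Kmt2c* KO replicate 1 or *Kmt2c* KO replicate 2.

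In the thioredoxin system, SRXN1 rose and PRDX6 fell in both 67NR knockouts, and TXN1, TXNRD1 and PRDX1 were not called. SRXN1 (chr2:151931252-151937112), the enzyme that restores overoxidised peroxiredoxins, was at 36.5, 37.0 and 42.6 CPM in 67NR WT, 107, 102 and 122 in *Kmt2c* KO and 69.1, 67.0 and 84.0 in *Kmt2d* KO. The 3 groups did not overlap, and the rises were 2.85-fold (log2 1.51 ± 0.15, edgeR adjusted p = 8.68e-05) and 1.90-fold (0.92 ± 0.15, edgeR adjusted p = 0.00241). In 168FARN, SRXN1 was at 226, 243 and 218 CPM in WT, 219, 229 and 234 in *Kmt2c* KO and 186, 216 and 224 in *Kmt2d* KO and the log2 fold changes were -0.01 ± 0.14 and -0.14 ± 0.14. PRDX6 (chr1:163170243-163181350, minus strand), a peroxiredoxin that reduces phospholipid peroxides with glutathione, was at 372, 372 and 396 CPM in 67NR WT, 147, 143 and 137 in *Kmt2c* KO and 201, 200.2 and 179 in *Kmt2d* KO. The groups again did not overlap, with log2 fold changes of -1.42 ± 0.12 (edgeR adjusted p = 3.85e-05) and -0.98 ± 0.12 (0.000588). In 168FARN, PRDX6 was at 206, 208 and 228 CPM in WT, 143, 157 and 164 in *Kmt2c* KO and 165, 209.7 and 229 in *Kmt2d* KO. The *Kmt2c* KO libraries lay below WT there, at -0.47 ± 0.17 (edgeR adjusted p = 0.616, with the block 0.0148), under the fold threshold.

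**Figure D2:**
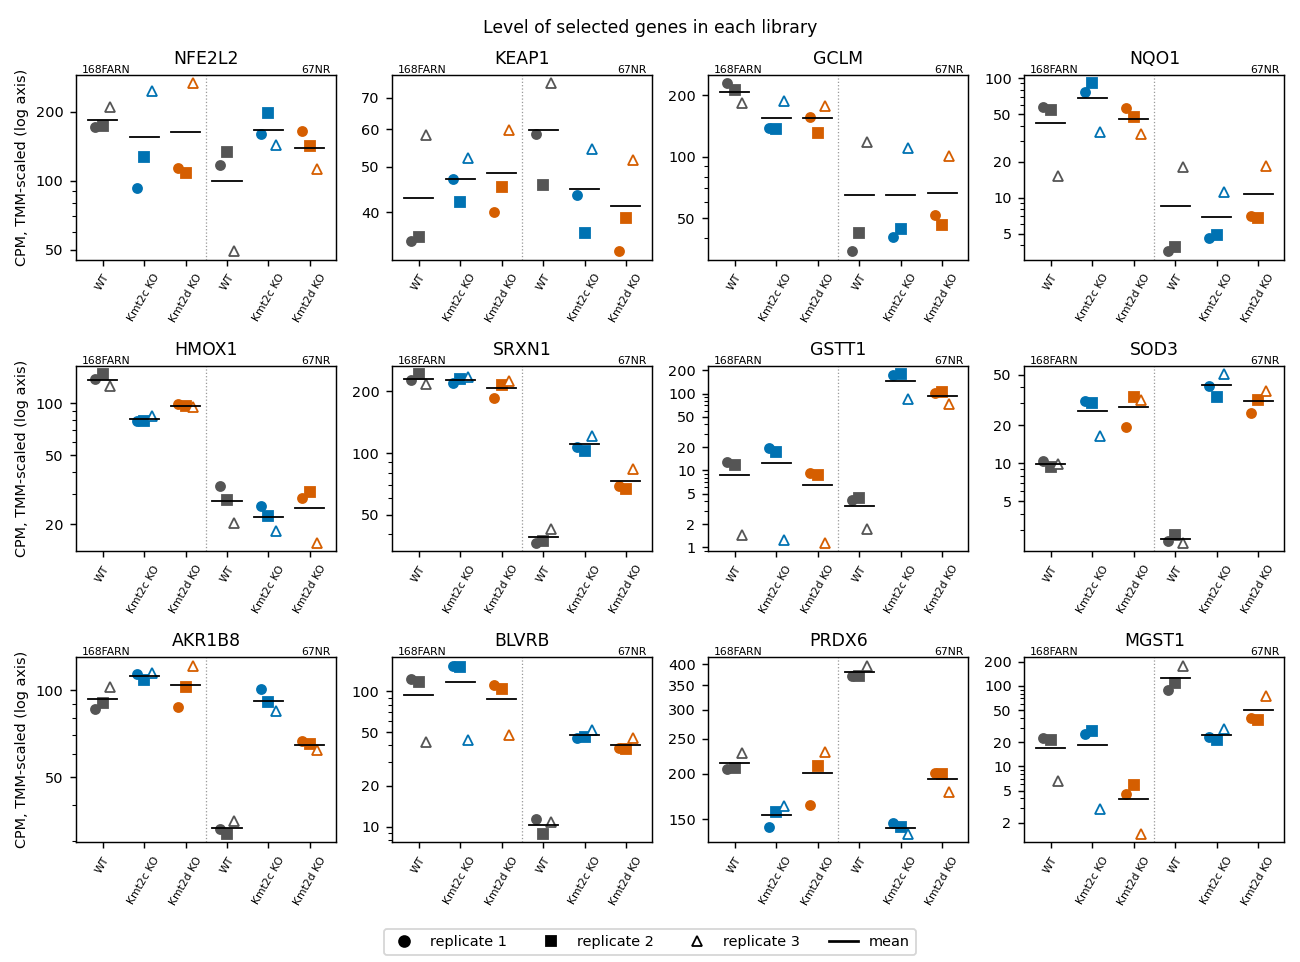
CPM (scaled by TMM within a line, log axis) of 12 genes in each library, with a panel per gene, 168FARN to the left and 67NR to the right of the dotted line, a symbol for each replicate (3 open) and a bar for the mean. In 67NR, SRXN1, GSTT1, SOD3, AKR1B8 and BLVRB are higher in all 6 knockout libraries than in WT and PRDX6 and MGST1 lower, while NFE2L2, KEAP1, GCLM, NQO1 and HMOX1 overlap between WT and at least one knockout.

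Of the genes of NADPH supply, TALDO1 rose in both 67NR knockouts and G6PDX, PGD, TKT and ME1 were not called in either line. TALDO1, transaldolase of the non-oxidative pentose phosphate pathway, was at 91.3, 81.0 and 133 CPM in 67NR WT, 222, 196 and 277 in *Kmt2c* KO and 186, 187 and 201 in *Kmt2d* KO. Every knockout library was above every WT library, with log2 fold changes of 1.19 ± 0.21 (edgeR adjusted p = 0.00235) and 0.91 ± 0.21 (0.0135). In 168FARN it was at 402, 429 and 318 CPM in WT, 397, 399 and 349 in *Kmt2c* KO and 362, 353 and 335 in *Kmt2d* KO, with overlapping groups. G6PDX and PGD, the dehydrogenases that make NADPH in the same pathway, had log2 fold changes of -0.19 ± 0.30 and -0.12 ± 0.38 in 67NR *Kmt2c* KO and of -0.45 ± 0.30 and -0.53 ± 0.38 in *Kmt2d* KO.

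The glutathione transferases, which conjugate glutathione to electrophiles, held the gene with the largest fold change. Of 10 tested in 67NR, 2 rose and 1 fell in each knockout. GSTT1 (chr10:75246558-75261329, minus strand), a theta-class transferase, was at 4.07, 4.38 and 1.73 CPM in 67NR WT, 173, 178 and 84.4 in *Kmt2c* KO and 102, 106 and 74.2 in *Kmt2d* KO. The lowest knockout library was far above the highest of WT, and the rises were 42.4-fold (log2 5.41 ± 0.45, edgeR adjusted p = 2.89e-05) and 27.5-fold (4.78 ± 0.44, edgeR adjusted p = 8.4e-05). In 168FARN, GSTT1 was at 12.8, 11.8 and 1.44 CPM in WT, 19.3, 17.2 and 1.23 in *Kmt2c* KO and 9.31, 8.83 and 1.15 in *Kmt2d* KO, so that replicate 3 was lowest in each group.

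GSTM1 (chr3:107815173-107820891, minus strand), a mu-class transferase, was at 16.0, 13.2 and 33.6 CPM in 67NR WT, 80.8, 73.2 and 90.0 in *Kmt2c* KO and 56.5, 62.0 and 70.5 in *Kmt2d* KO. It rose by 3.89-fold (log2 1.96 ± 0.32, edgeR adjusted p = 0.00153) and 3.02-fold (1.59 ± 0.32, edgeR adjusted p = 0.00703). In 168FARN it was at 458, 414 and 72.1 CPM in WT, 518, 471 and 70.1 in *Kmt2c* KO and 472, 538 and 90.2 in *Kmt2d* KO, split by replicate 3 and not by genotype. The mu-class genes are close copies in a cluster, so reads can be split between them and the level of each is uncertain.

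MGST1 (chr6:138088837-138105276), a membrane-bound transferase and peroxidase, was at 89.0, 109 and 178 CPM in 67NR WT, 22.9, 21.1 and 28.8 in *Kmt2c* KO and 40.0, 37.6 and 75.0 in *Kmt2d* KO. Each knockout library lay below each WT library, with log2 fold changes of -2.37 ± 0.34 (edgeR adjusted p = 0.000767) and -1.30 ± 0.33 (0.0214). In 168FARN, MGST1 was at 22.3, 21.4 and 6.50 CPM in WT, 25.3, 27.2 and 2.99 in *Kmt2c* KO and 4.55, 5.79 and 1.44 in *Kmt2d* KO. Its *Kmt2d* KO libraries were all below WT, with a log2 fold change of -2.10 ± 0.87 (edgeR adjusted p = 0.895) and, with the replicate block, -2.16 (edgeR adjusted p = 0.000952). GSTA4, GSTM2, GSTM5, GSTP1, GSTO1, MGST2 and MGST3 were not called in either line. With the block in 67NR, MGST3 rose in *Kmt2c* KO at 1.20 (edgeR adjusted p = 0.00017) and in *Kmt2d* KO at 1.17 (0.000324), and MGST2 fell in *Kmt2c* KO at -0.70 (0.0382). The block called many genes in 67NR, as counted above over all genes. With the block in 168FARN, GSTM5 fell at -1.01 (edgeR adjusted p = 0.0149) and -1.03 (0.0192), GSTA4 at -0.66 (0.0542) and -0.74 (0.0516), and GSTM2 in *Kmt2d* KO at -0.63 (0.0117).

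Of the 7 tested peroxidases, catalase and superoxide dismutases, SOD3 and GPX8 rose in both 67NR knockouts and CAT fell in *Kmt2c* KO. SOD3 (chr5:52755185-52762644), the secreted superoxide dismutase, was at 2.42, 2.74 and 2.36 CPM in 67NR WT, 40.8, 33.5 and 50.6 in *Kmt2c* KO and 24.9, 31.7 and 37.5 in *Kmt2d* KO. The rises were 16.6-fold (log2 4.05 ± 0.23, edgeR adjusted p = 4.83e-06) and 12.5-fold (3.64 ± 0.23, edgeR adjusted p = 1.4e-05). In 168FARN, SOD3 was at 10.4, 9.29 and 9.85 CPM in WT, 31.0, 30.3 and 16.4 in *Kmt2c* KO and 19.3, 33.5 and 31.4 in *Kmt2d* KO. Each knockout library was above WT there as well, with log2 fold changes of 1.39 ± 0.30 (edgeR adjusted p = 0.235) and 1.51 ± 0.30 (0.158), and the replicate block called both, at 1.37 (edgeR adjusted p = 0.011) and 1.50 (0.00873). SOD3 was thus the one gene of the set with a call in all 4 comparisons of a knockout with WT when the block was used.

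SOD1 and SOD2, the cytosolic and mitochondrial dismutases, were not called, and SOD2 lay between 67.0 and 77.2 CPM in all 9 libraries of 67NR. GPX8, a peroxidase of the endoplasmic reticulum, had means of 90.2 ± 54.1, 217 ± 59.4 and 190 ± 56.0 CPM (SD, n = 3) for 67NR WT, then *Kmt2c* KO, then *Kmt2d* KO. Its log2 fold changes were 1.27 ± 0.40 (edgeR adjusted p = 0.0376) and 1.07 ± 0.40 (0.0881), and the calls were lost without WT replicate 1, WT replicate 2 or replicate 3 of the knockout, and in *Kmt2d* KO also without its replicate 1. Without WT replicate 3 they were 1.88 and 1.68. CAT, catalase, fell from 68.2 ± 19.6 to 41.2 ± 8.04 CPM in 67NR *Kmt2c* KO, a log2 fold change of -0.73 ± 0.22 (edgeR adjusted p = 0.0331), lost without WT replicate 3 or *Kmt2c* KO replicate 1 or 2. In 168FARN, the block called CAT lower in *Kmt2d* KO, at -0.64 (edgeR adjusted p = 0.0037). GPX1 and GPX4 were not called in any comparison of a knockout with WT.

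Among the quinone and carbonyl reductases, AKR1B8 rose in both 67NR knockouts, CBR1 fell in *Kmt2c* KO, and NQO1 and ALDH3A1 were not called. NQO1, the quinone reductase most often used as a readout of NRF2, was at 3.57, 3.84 and 18 CPM in 67NR WT, 4.56, 4.92 and 11.2 in *Kmt2c* KO and 7.08, 6.78 and 18.5 in *Kmt2d* KO. The libraries overlapped, replicate 3 was the highest of each group, and the log2 fold changes were -0.29 ± 0.70 and 0.35 ± 0.69 (edgeR adjusted p = 0.789 and 0.774). From replicates 1 and 2 alone, NQO1 was called higher in 67NR *Kmt2d* KO, at 0.90 (edgeR adjusted p = 0.000719). In 168FARN, NQO1 was at 57.2, 54.4 and 15.3 CPM in WT, 76.7, 90.9 and 35.6 in *Kmt2c* KO and 56.5, 46.8 and 34.3 in *Kmt2d* KO. Within each replicate number the *Kmt2c* KO library was above WT, the log2 fold change was 0.68 ± 0.52 (edgeR adjusted p = 1), and the block called it at 0.76 (edgeR adjusted p = 0.0627).

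AKR1B8 (chr6:34304119-34318463), an aldo-keto reductase with close copies beside it, was at 33.1, 31.7 and 35.1 CPM in 67NR WT, 101, 91.2 and 84.6 in *Kmt2c* KO and 66.9, 65.0 and 62.0 in *Kmt2d* KO. The groups did not overlap, and the log2 fold changes were 1.47 ± 0.13 (edgeR adjusted p = 4.27e-05) and 0.96 ± 0.13 (0.000879). In 168FARN it was at 86.1, 90.5 and 102 CPM in WT, 114, 109 and 115 in *Kmt2c* KO and 87.9, 103 and 122 in *Kmt2d* KO, with log2 fold changes of 0.27 ± 0.16 and 0.16 ± 0.16. CBR1, a carbonyl reductase, had means of 30.0 ± 10.5, 14.8 ± 1.26 and 21.0 ± 4.22 CPM in 67NR WT, *Kmt2c* KO and *Kmt2d* KO (SD, n = 3), and log2 fold changes of -1.01 ± 0.25 (edgeR adjusted p = 0.0136) and -0.51 ± 0.25 (0.187). ALDH3A1, an aldehyde dehydrogenase, was called higher in 67NR *Kmt2c* KO by the block, at 0.62 (edgeR adjusted p = 0.0955).

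Among the haem and iron genes, BLVRB and FTH1 rose in both 67NR knockouts, and HMOX1 fell in 168FARN *Kmt2c* KO. HMOX1 (chr8:77617490-77624495), the inducible haem oxygenase, was at 138, 147 and 126 CPM in 168FARN WT, 79.0, 78.9 and 84.0 in *Kmt2c* KO and 98.7, 96.4 and 95.1 in *Kmt2d* KO. The 3 groups did not overlap. The log2 fold change in *Kmt2c* KO was -0.76 ± 0.13 (edgeR adjusted p = 0.0945, with the block 0.000714), and this call was lost when any 1 of the 6 WT and *Kmt2c* KO libraries was left out, at an adjusted p of up to 0.548. In *Kmt2d* KO it was -0.50 ± 0.13 (edgeR adjusted p = 0.352, with the block 0.0114), under the fold threshold. In 67NR, HMOX1 was at 33.4, 27.6 and 20.4 CPM in WT, 25.4, 22.4 and 18.4 in *Kmt2c* KO and 28.4, 30.5 and 15.6 in *Kmt2d* KO, with overlapping groups and log2 fold changes of -0.30 ± 0.28 and -0.13 ± 0.28.

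BLVRB (chr7:28232997-28251163), a biliverdin and flavin reductase, was at 11.4, 8.83 and 10.7 CPM in 67NR WT, 45.3, 46.3 and 52.3 in *Kmt2c* KO and 38.1, 37.7 and 45.6 in *Kmt2d* KO. The rises were 4.64-fold (log2 2.21 ± 0.16, edgeR adjusted p = 1.55e-05) and 3.92-fold (1.97 ± 0.16, edgeR adjusted p = 4.68e-05). In 168FARN, BLVRB was at 123, 117 and 42.1 CPM in WT, 155, 152 and 43.8 in *Kmt2c* KO and 112, 105 and 47.3 in *Kmt2d* KO, again split by replicate 3. FTH1, the ferritin heavy chain that stores iron, was at 1557, 1468 and 956 CPM in 67NR WT, 2724, 2931 and 2283 in *Kmt2c* KO and 2411, 2314 and 1907 in *Kmt2d* KO, with log2 fold changes of 1.00 ± 0.22 (edgeR adjusted p = 0.00731) and 0.74 ± 0.22 (0.0402). The call of FTH1 in *Kmt2d* KO was lost without WT replicate 3 or *Kmt2d* KO replicate 1 or 2. In 168FARN, FTH1 was at 9412, 10049 and 5502 CPM in WT, 11458, 12159 and 5737 in *Kmt2c* KO and 9636, 11433 and 6033 in *Kmt2d* KO. FTL1, the light chain, was not called in either line, and both ferritin genes have processed copies that can share reads.

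Of the exporters, ABCC1 rose slightly in both 67NR knockouts and ABCC4 was not called. ABCC1 (MRP1), which exports glutathione and its conjugates, was at 80.4, 86.3 and 79.4 CPM in 67NR WT, 146, 136 and 132 in *Kmt2c* KO and 128, 132 and 116 in *Kmt2d* KO. Each knockout library was above each WT library, with log2 fold changes of 0.75 ± 0.12 (edgeR adjusted p = 0.0016) and 0.61 ± 0.12 (0.0074). The second lies just above the fold threshold, and the call was lost without WT replicate 3 or *Kmt2d* KO replicate 1 or 2. In 168FARN, ABCC1 was at 167, 171 and 142 CPM in WT, 139.5, 138 and 156 in *Kmt2c* KO and 117, 116 and 128 in *Kmt2d* KO, with log2 fold changes of -0.15 ± 0.14 and -0.41 ± 0.14 (edgeR adjusted p = 1 and 0.666).

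The knockouts were also compared with each other. In 67NR, edgeR called 0 of the 43 genes, while of all genes 0.132% were higher and 1.28% lower when *Kmt2c* KO was set against *Kmt2d* KO. DESeq2 called SRXN1 higher and MGST1 lower, where it called 128 of all 13665 genes higher and 469 lower. MGST1, AKR1B8, SRXN1 and PRDX6 passed an unadjusted p under 0.05 in edgeR. For each of these 4 genes the change against WT was larger in *Kmt2c* KO, and the difference between the knockouts was -1.07 ± 0.33, 0.51 ± 0.13, 0.59 ± 0.15 and -0.44 ± 0.12 on the log2 scale in the order given (edgeR adjusted p = 0.255, 0.149, 0.154 and 0.195). Of all genes, 2445 rose and 2384 fell against WT in *Kmt2c* KO, and 1903 and 1581 in *Kmt2d* KO. The 4 genes were taken by the comparison of the knockouts itself and were not called, so no shared pattern is read from them. With the block, 0 were higher and 1, MGST1, was lower (edgeR adjusted p = 0.00289), against 1.59% and 5.70% of all genes. In 168FARN, edgeR called 0 of the 43 genes, against 0.131% of all genes called higher and 0.122% lower. DESeq2 called 0 as well, where it called 133 of all 12253 genes higher and 102 lower. PRDX6 and MGST1 passed an unadjusted p under 0.05 in edgeR. The share of all genes passing that threshold was not counted in either line. With the block, MGST1 (2.05, edgeR adjusted p = 0.00152), GSTT1 (0.82, 0.024) and CAT (0.63, 0.00517) were higher in *Kmt2c* KO than in *Kmt2d* KO, and 0 were lower, against 2.89% and 2.44% of all genes.

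Whether a knockout acted differently in the 2 lines was tested as an interaction on all 18 libraries. For *Kmt2c* KO the difference between lines was called in 10 of 43 genes, 7 more positive in 67NR and 3 more negative, against 8.49% and 7.55% of all genes. For *Kmt2d* KO it was called in 8, 7 more positive (16.3% of the genes, against 6.68% of all) and 1 more negative (against 3.92%). GSTT1, SOD3, BLVRB, SRXN1, AKR1B8, TALDO1 and ABCC1 were more positive in 67NR for both knockouts and PRDX6 was more negative for both, in tests that share the WT libraries. SRXN1 differed by 1.44 ± 0.21 (edgeR adjusted p = 0.000194) and 1.00 ± 0.21 (0.00632) on the log2 scale, and SOD3 by 2.58 ± 0.38 (0.000272) and 2.07 ± 0.38 (0.00258), although its libraries were above WT in both lines. CBR1 and MGST1 were more negative in 67NR for *Kmt2c* KO. The calls of BLVRB in both tests and of CBR1 and MGST1 were lost when any of 8 to 11 of the 12 libraries was left out, TALDO1 for *Kmt2d* KO without 67NR WT replicate 1 or 2, and AKR1B8 for *Kmt2d* KO without 67NR WT replicate 2. With the block, 12 genes were more positive and 11 more negative for *Kmt2c* KO, against 17.4% and 17.2% of all genes, and 14 and 7 for *Kmt2d* KO, against 15.4% and 13.0%.

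**Figure D3:**
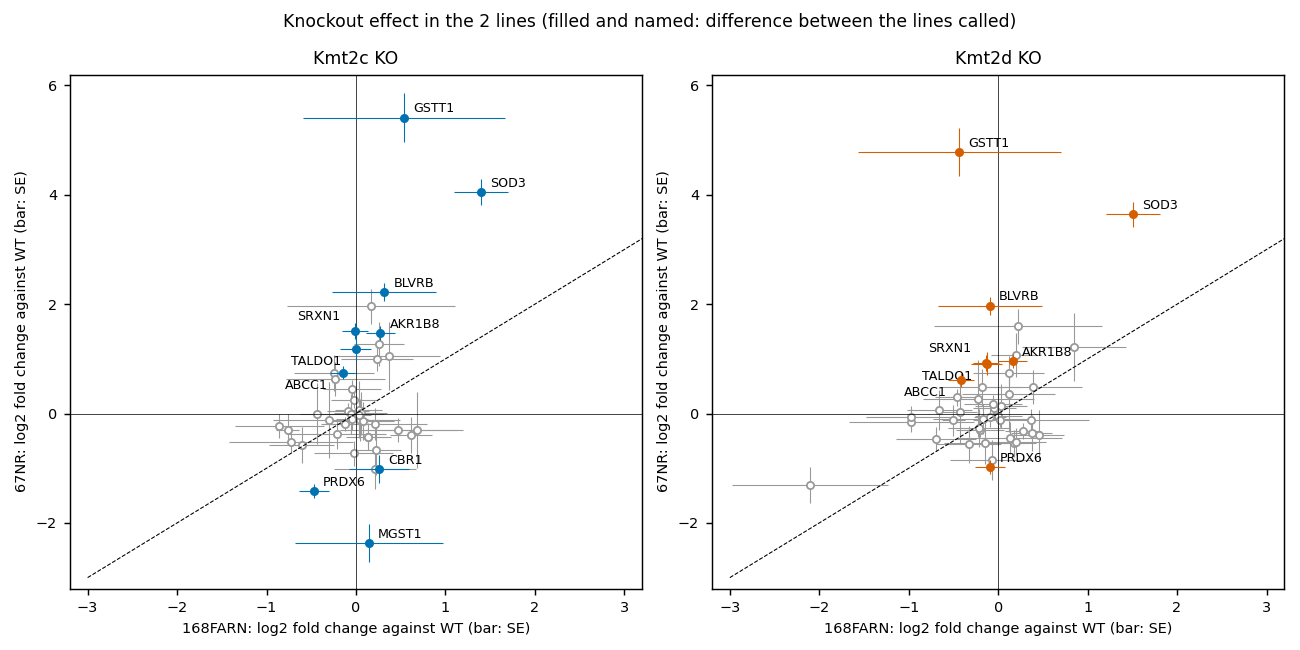
Log2 fold change against WT in 67NR (vertical axis) against that in 168FARN (horizontal axis) for each tested gene, with *Kmt2c* KO on the left and *Kmt2d* KO on the right, bars for the standard error and a dashed line where both lines are equal. The filled and named genes are the 10 and 8 whose difference between lines was called, and GSTT1 and SOD3 lie farthest above the line in both panels.

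WT cells of the 2 lines were compared on the same fit. The lines were counted in separate tables, and only the WT libraries of 168FARN are named for a control sgRNA. A difference between the lines, a batch and any difference in the kind of control therefore cannot be told apart here. Of 43 genes, 19 (44.2%) were lower in 67NR and 3 (6.98%) higher, where 16.9% of all genes were lower and 22.3% higher. The median log2 difference of the set, 67NR against 168FARN, was -0.68, and 0.04 over all genes. From replicates 1 and 2 alone, 26 genes were lower and 5 higher, where 3582 of all 13971 tested genes were lower and 4002 higher. To compare genes, levels were expressed as RPKM over the summed exon length. FTH1 had the highest level in WT of both lines, 9866 ± 2959 RPKM in 168FARN and 1566 ± 384 in 67NR (SD, n = 3), a log2 difference of -2.65 ± 0.35 (edgeR adjusted p = 2.25e-05). FTL1, TXN1, SQSTM1 and SOD1 followed in both lines, and neighbours in that order overlapped, except that FTL1 lay above TXN1 and below FTH1 in 168FARN without overlap.

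The NRF2 target genes named above were lower in 67NR WT. SRXN1 was at 83.3 ± 4.75 RPKM in 168FARN and 14.0 ± 1.20 in 67NR, a log2 difference of -2.57 ± 0.15 (edgeR adjusted p = 5.76e-09). HMOX1 was at 64.9 ± 5.28 and 12.8 ± 3.08 RPKM (-2.34 ± 0.23, edgeR adjusted p = 1.24e-06), GCLC at 42.5 ± 10.8 and 14.0 ± 0.819 (-1.60 ± 0.20, 1.13e-05), GCLM at 41.7 ± 4.93 and 12.9 ± 9.16 (-1.69 ± 0.47, 0.00937) and NQO1 at 28.0 ± 15.6 and 5.57 ± 5.42 (-2.33 ± 0.69, 0.0139). Without 67NR WT replicate 3, the difference was -2.44 for GCLM and -3.52 for NQO1. With another library left out, it was as small as -1.38 for GCLM and -1.95 for NQO1. Libraries of the 2 lines did not overlap for the first 4, whereas NQO1 in 168FARN WT replicate 3, at 10.0 RPKM, lay below the highest of 67NR at 11.8. NFE2L2 itself was at 49.9 ± 5.31 and 26.9 ± 12.1 RPKM, a log2 difference of -0.89 ± 0.42 (edgeR adjusted p = 0.11), and KEAP1 at 9.82 ± 3.04 and 13.7 ± 3.37 (0.48 ± 0.26, 0.17). GSTM1 had the largest difference, 232 ± 156 against 15.3 ± 8.07 RPKM (-3.92 ± 0.81, edgeR adjusted p = 0.00126), followed by BLVRB (-3.19 ± 0.48, 6.87e-05) and ALDH3A1 (-2.96 ± 0.50, 0.00021).

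The 3 genes higher in 67NR WT were MGST1 (2.90 ± 0.69, edgeR adjusted p = 0.0038), CBR1 (1.82 ± 0.32, 0.000271) and PRDX6 (0.82 ± 0.15, 0.000323). The comparison between WT lines and the comparisons of the 67NR knockouts hold the same 67NR WT libraries, so a deviation of those libraries would enter them with opposite sign. Side by side, the log2 difference between WT lines and the log2 fold change in 67NR *Kmt2c* KO were 2.90 and -2.37 for MGST1, -2.57 and 1.51 for SRXN1, -3.19 and 2.21 for BLVRB, -1.98 and 4.05 for SOD3, and -1.35 and 5.41 for GSTT1, which was not called between WT lines (edgeR adjusted p = 0.254). HMOX1, GCLM and NQO1, with -2.34, -1.69 and -2.33 between WT lines, were not called in either 67NR knockout. The calls of MGST3 and FTL1 between WT lines were lost without replicate 1 or 2 of either line and that of GSTM2 without 67NR WT replicate 1 or 2. Without 67NR WT replicate 3, MGST3 moved to -2.24 from -1.48 and GPX8 to -2.0 from -1.40.

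**Figure D4:**
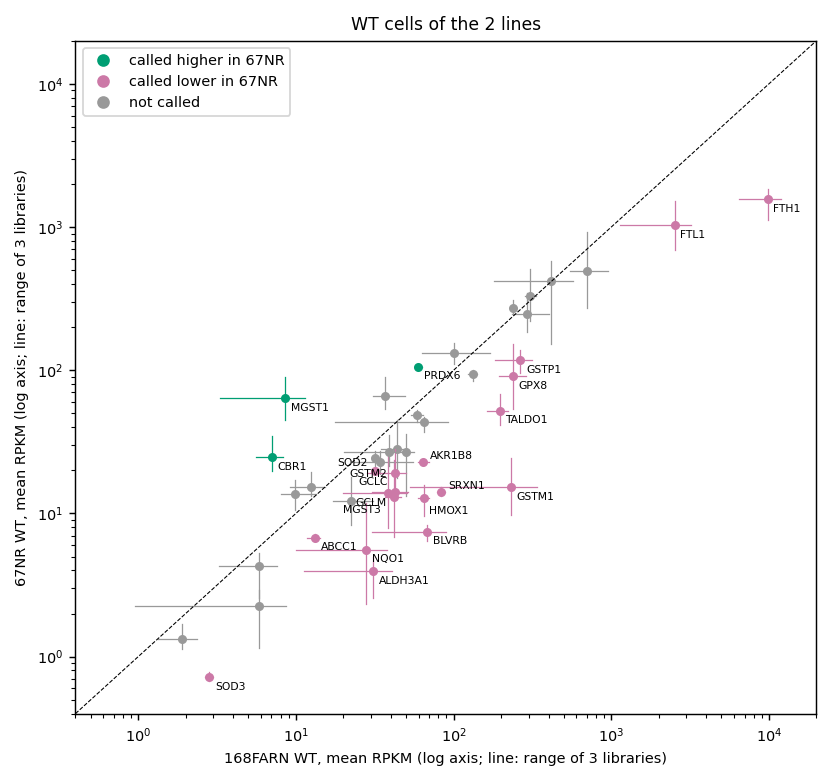
Mean RPKM in 67NR WT (vertical axis) against 168FARN WT (horizontal axis) for each gene with counts, both on log axes, with lines for the range of 3 libraries, a dashed line of equality and colours for genes called higher or lower in 67NR. The 19 genes called lower lie below the line over the whole range of levels, from SOD3 to FTH1, and MGST1, CBR1 and PRDX6 lie above it.

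**Figure D5:**
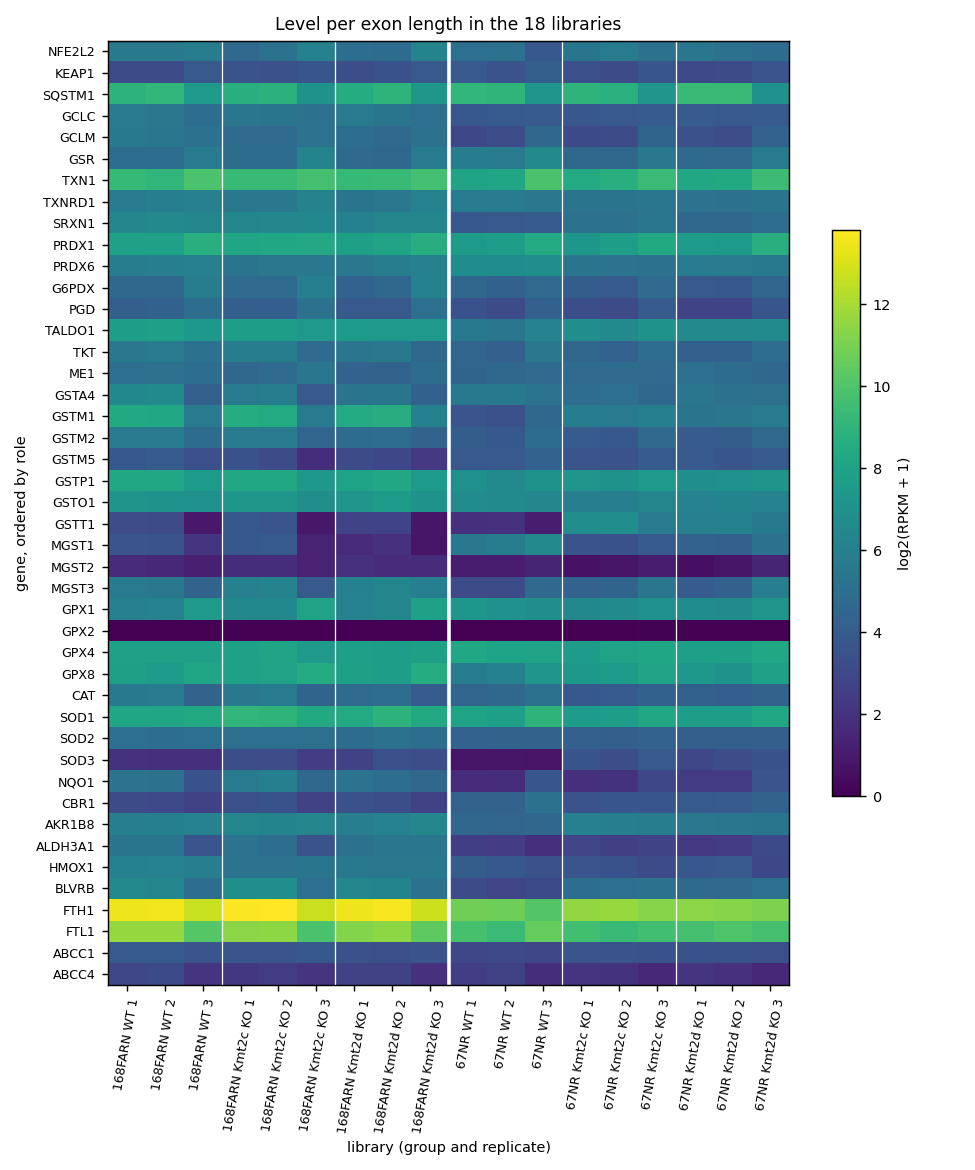
Log2(RPKM + 1) of the 44 genes (rows, by role) in the 18 libraries (columns, by group), on the colour scale shown. FTH1 and FTL1 are highest throughout, GPX2 is dark in each library, GSTT1 and SOD3 are dark in 67NR WT and lighter in the 67NR knockouts, and replicate 3 of 168FARN is darker than replicates 1 and 2 for GSTM1, GSTT1 and MGST1.

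The same question was asked of 88 other genes of glutathione, thioredoxin, NADPH, iron and detoxification pathways, of which 87 were found, 70 were tested in 168FARN and 75 in 67NR. In 67NR, 14 rose and 14 fell in *Kmt2c* KO (18.7% each) and 10 rose and 9 fell in *Kmt2d* KO (13.3% and 12%), close to the shares of all genes given above. By the smallest p-values, MSRB3, a methionine sulfoxide reductase, rose from 17.9 ± 1.56 to 70.9 ± 20.1 CPM in *Kmt2c* KO (log2 1.98 ± 0.23, edgeR adjusted p = 0.00018), GSTT3, a theta-class transferase, from 18.7 ± 1.14 to 54.2 ± 11.5 (1.54 ± 0.19, 0.000268), and CBR3, a carbonyl reductase, from 0.389 ± 0.222 to 5.24 ± 0.287 (3.71 ± 0.46, 0.000295). GSTT3 and CBR3 rose in *Kmt2d* KO too, at 1.18 ± 0.19 (edgeR adjusted p = 0.00196) and 2.82 ± 0.44 (0.00201), together with GSTM6, from 0.236 ± 0.0314 to 1.92 ± 0.609 CPM (3.02 ± 0.43, 0.00119).

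SLC40A1, the iron exporter ferroportin, fell from 32.0 ± 10.3 CPM in 67NR WT to 0.871 ± 0.0840 in *Kmt2c* KO (log2 -5.20 ± 0.31, edgeR adjusted p = 5.64e-06) and 3.69 ± 0.478 in *Kmt2d* KO (-3.11 ± 0.28, 7.4e-05). RPIA, ribose 5-phosphate isomerase, fell from 104 ± 2.30 to 24.0 ± 1.39 and 46.2 ± 3.14 CPM, with log2 fold changes of -2.12 ± 0.13 and -1.18 ± 0.13 (edgeR adjusted p = 6.28e-06 and 0.000226). SESN3, a stress-induced sestrin, fell from 29.7 ± 6.56 to 8.03 ± 0.198 and 11.4 ± 0.497 CPM, at -1.89 ± 0.19 and -1.38 ± 0.19 (edgeR adjusted p = 7.93e-05 and 0.00083). In 168FARN, edgeR called 0 of the 70 genes in either knockout, with 6 and 4 at an unadjusted p under 0.05, DESeq2 called 3 and 1, and the block 8 and 3. Some genes pass an unadjusted threshold without any change, and the calls over all genes by DESeq2 and by the block are given above.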

How the data were processed

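The study extracted RNA from cultured 168FARN and 67NR cells and made strand-specific polyA libraries with the KAPA mRNA HyperPrep kit. Reads were mapped by the authors with STAR against mm9 inside VIPER, and they deposited raw counts per gene symbol, 1 table per line, without normalization. Whether counting used strand is not given in the sources used here, so overlapping genes and close copies are uncertain. Of the 67NR gene names 27 were turned to dates, none of them of this set. Each of the 18 columns matched 1 sample and 0 were left over. Replicates are separate samples per the study, which defines them as collections of a cell line separated by 1 passage. The SE and p-values therefore measure the spread between collections of the same cells. An effect of the knockout and any other difference between the cell pools cannot be told apart.

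Counts were tested with edgeR 4.0.16 in R 4.3.3 (quasi-likelihood, robust, TMM, low counts filtered by group, genotype as the factor, 9 libraries per line, Benjamini-Hochberg over all genes). Interactions and WT lines were fitted on all 18 libraries. The thresholds, adjusted p under 0.1 and absolute log2 fold change over 0.6, are those of an earlier analysis of these counts. DESeq2 1.42.0 was an alternative, beside others given at the end. The SE is the log2 fold change over the square root of F. CPM are TMM-scaled within a line, and RPKM across lines use union exon lengths of GENCODE vM1 in mm9. The scripts were tested on simulated data.

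The members and lists were chosen with earlier results of these data known. Values in every library are given for NFE2L2, KEAP1, NQO1, HMOX1, GCLM and SRXN1 and for at most 12 members called in a knockout without overlap of libraries, by smallest p. Of the other 88 pathway genes, the 3 higher and 3 lower with the smallest p in each 67NR knockout are named. The replicate block takes samples with the same number as pairs, and the data bear this out for replicate 3 only. Deviations from group means were correlated between the replicates 3 of different groups, by 0.856 to 0.897 for 168FARN groups and by 0.535 to 0.717 for those of 67NR. Among replicates 1 and 2 of 168FARN, same numbers reached 0.650 to 0.738 and different numbers 0.623 to 0.728. For 67NR these ranges were 0.351 to 0.426 and 0.284 to 0.523. Same and different numbers thus overlapped, so a pairing of 1 with 1 and of 2 with 2 was not shown. Between replicate 3 and the others the correlations were -0.825 to -0.420. Deviations within a group cancel, which favours such opposite signs.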

Additional observations from a re-analysis of the deposited data

Results flagged for a closer look

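The test of the difference between lines, 67NR against 168FARN, flagged the following knockout effects, given as differences of log2 fold changes with edgeR's adjusted p under 0.1. For *Kmt2c* KO the differences were 4.79 for GSTT1, 2.58 for SOD3, 1.82 for BLVRB, 1.44 for SRXN1, 1.11 for TALDO1, 1.11 for AKR1B8, 0.82 for ABCC1, -1.03 for PRDX6, -1.35 for CBR1 and -2.59 for MGST1. For *Kmt2d* KO they were 5.17 for GSTT1, 2.07 for SOD3, 2.01 for BLVRB, 1.00 for SRXN1, 0.98 for TALDO1, 0.97 for ABCC1, 0.73 for AKR1B8 and -0.95 for PRDX6. The 2 sets of differences share the WT libraries of both lines.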

How the results depend on the processing

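Of 1225 alternative values of 89 fold changes, 1107 kept their direction and side of the threshold, 88 lost the call, 11 gained it and 19 changed sign. The level of HMOX1 in 168FARN *Kmt2d* KO moved from 96.7 to 94.6 CPM when scaled by total counts, by more than its spread.

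Genes called in 168FARN *Kmt2c* KO numbered 1, and 0 at an adjusted p under 0.05 with no fold threshold, 0 without the filter, 0 from the 6 libraries compared alone, 2 with DESeq2, 8 from replicates 1 and 2 and 0 to 1 with a library left out. The 1 gene called without *Kmt2c* KO replicate 3 was higher, and HMOX1 was lost in each of these fits. In 168FARN *Kmt2d* KO the genes called numbered 0, 1 with DESeq2 and 10 from replicates 1 and 2. Between knockouts they numbered 0 in 168FARN and 5 from replicates 1 and 2, and 0 in 67NR, 2 with DESeq2 and 3 from replicates 1 and 2. Differences between lines numbered 10 for *Kmt2c* KO and 8 for *Kmt2d* KO, 23 and 25 from replicates 1 and 2, and 5 to 8 for *Kmt2d* KO with a library left out. Of all 13971 genes, replicates 1 and 2 called 2689 more positive and 2614 more negative for *Kmt2c* KO, and 2516 and 2023 for *Kmt2d* KO. Between knockouts they called 633 of 12285 genes higher and 508 lower in 168FARN, and 692 and 1051 of 13851 in 67NR. The cause of these shifts was not tested.

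With the replicate block, the counts were 5 and 6 in the 168FARN knockouts, 3 and 1 between knockouts in 168FARN and 67NR, and 23 and 21 between lines. The counts for the 67NR knockouts against WT (15 and 12) and between WT lines (22) stayed within 1.5 times under each alternative run, but not those of lower genes alone, which were 5 and 2, and 8 and 5 from replicates 1 and 2, nor of those higher in 67NR WT, 3 and then 5.

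From replicates 1 and 2 alone, NQO1 changed sign in 168FARN *Kmt2d* KO, to -0.10 from 0.12, and in 67NR *Kmt2c* KO, to 0.35 from -0.29. With a library left out, log2 fold changes crossed 0 for NFE2L2 in 168FARN *Kmt2c* KO (-0.74 to 0.01) and *Kmt2d* KO (-0.73 to 0.05), SRXN1 in 168FARN *Kmt2c* KO (-0.03 to 0.04), NQO1 in 168FARN *Kmt2d* KO (-0.28 to 0.41), 67NR *Kmt2c* KO (-0.83 to 0.89) and 67NR *Kmt2d* KO (-0.26 to 1.54), GCLM in 67NR *Kmt2c* KO (-0.62 to 0.76) and *Kmt2d* KO (-0.39 to 0.78), and HMOX1 in 67NR *Kmt2d* KO (-0.30 to 0.13).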

Other observations

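The genes below were grouped by position after their values were seen, so no test is given. In the theta-class transferase cluster on chromosome 10 of mm9 (75236860 to 75297626), GSTT1, GSTT2 and GSTT3 were the 3 genes listed and all 3 were called higher by edgeR in both 67NR knockouts, with log2 fold changes of 5.41 ± 0.45, 1.87 ± 0.55 and 1.54 ± 0.19 in *Kmt2c* KO and 4.78 ± 0.44, 1.54 ± 0.55 and 1.18 ± 0.19 in *Kmt2d* KO. In the mu-class cluster on chromosome 3 (107698739 to 107847812), 6 of 7 genes were tested. GSTM1, GSTM6 and GSTM7 were higher in both 67NR knockouts, with GSTM7 at 4.30 ± 0.84 and 3.34 ± 0.82 and GSTM6 at 3.55 ± 0.44 and 3.02 ± 0.43, GSTM4 was lower in *Kmt2c* KO at -1.44 ± 0.48, and GSTM2 and GSTM5 were not called. In 67NR WT, GSTM7 was at 0.324, 0.0287 and 0.0450 CPM, GSTM6 at 0.209 to 0.270, GSTT2 at 0.209 to 0.540 and GSTM4 at 0.360 to 0.533. At such low levels the size of a fold change is uncertain. Of all tested genes, 17.9% were higher in *Kmt2c* KO and 13.9% in *Kmt2d* KO, and 17.4% were lower in *Kmt2c* KO. The knockouts share the same WT libraries, and reads of these close copies can be split between genes.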
